A study of Mus musculus with 19 samples.

Results

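The core circadian clock was followed in mouse mammary tissue through 10 genes, taken by symbol from the known parts of the clock with earlier results of these data known. Arntl, Clock and Npas2 encode the activators, Per1, Per2, Per3 and Cry2 encode repressors, Nr1d1 and Nr1d2 encode nuclear receptors that hold down Arntl, and Dbp is an output gene. Each of the 10 was found among the 24421 genes of every count table, and each passed the filter of at least 10 reads in total. Their levels were compared by genotype and by day of pregnancy, and the relation of the activator genes to the repressor and output genes was read in each library.

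Total RNA was sequenced in 19 libraries of mammary gland from C57BL/6 mice (C57BL/6N in the study's methods) aged 8 to 12 weeks and kept under 12 h of light and 12 h of dark. Wild-type (WT) tissue, which carries no edited allele, gave 3 libraries at day 6 of pregnancy (p6) and 3 at day 18 (p18). Tissue labelled Enhancer-delS1-4, in which a super-enhancer of the casein locus was deleted in the germline with CRISPR/Cas9 (ΔSE), gave 4 libraries at p6 and 4 at p18. At p18, 3 libraries carried the label delCsn1s2b-E (ΔCsn1s2bE, deletion of a Csn1s2b enhancer that the labels do not specify further) and 2 carried delCsn3-PE (ΔCsn3PE, deletion of the proximal enhancer of Csn3). The ΔCsn1s2bE and ΔCsn3PE lines, referred to as the single-enhancer lines, had no WT libraries of their own, so that line and set of libraries cannot be told apart. Their extraction notes name WT tissue in lactation although the stage label reads p18, so that their stage is uncertain. The hour of the day at which tissue was taken is not given in the sources used here.

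The clock is a loop of transcription. A dimer of ARNTL (also called BMAL1) with CLOCK or NPAS2 binds E-boxes and activates the Per and Cry genes, Nr1d1, Nr1d2 and Dbp, and the PER and CRY proteins then block the dimer. NR1D1 and NR1D2 repress Arntl through ROR elements, so that in most tissues Arntl mRNA runs in antiphase with Nr1d1 and Dbp over the day, while DBP and related factors act on D-boxes in genes such as Per3. In the mammary gland as in other tissues, the mRNA level at a given hour therefore depends on the phase of the cycle as well as on its strength.

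In GRCm38 the activators lie at chr7:113207465-113314126 (Arntl, plus strand), chr5:76209868-76304792 (Clock, minus strand) and chr1:39193731-39363236 (Npas2, plus strand). The Per genes lie at chr11:69095217-69109960 (Per1, plus strand), chr1:91415982-91459324 (Per2, minus strand) and chr4:151003652-151044665 (Per3, minus strand). The other repressors and Dbp lie at chr2:92403646-92434043 (Cry2, minus strand), chr11:98767932-98775333 (Nr1d1, minus strand), chr14:18204054-18239127 (Nr1d2, minus strand) and chr7:45705088-45710203 (Dbp, plus strand).

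Promoter windows of RefSeq on GRCm38.p6, which run from 250 bases before to 50 bases after a start site, were given for 9 of the 10 genes. Exact matches to the clock motifs stood in windows of Per1, Per3, Cry2, Nr1d1 and Arntl, and the stretches shown are those that hold a match. The windows of Clock, Npas2, Nr1d2 and Dbp held none, nor did a further window of Per1 and of Arntl. Per2 had no window. The searched letters were CACGTG (E-box), CACGTT (E-prime box), TTATGTAA and TTACGTAA (D-box), TAGGTCA and TGGGTCA (ROR element) and TGACGTCA (cAMP element) on both strands. Capitals mark the match, and each stretch is written 5′ to 3′ on the strand of the gene. The first 4 lines are the 250 bases before the start site, at chr11:69098699-69098948 (plus strand) for Per1, chr4:151044666-151044915 (minus strand) for Per3, chr2:92434070-92434319 (minus strand) for Cry2 and chr11:98775378-98775627 (minus strand) for Nr1d1. The last is a stretch of 30 bases after the start site of Arntl, at chr7:113207529-113207558 (plus strand).
Per1: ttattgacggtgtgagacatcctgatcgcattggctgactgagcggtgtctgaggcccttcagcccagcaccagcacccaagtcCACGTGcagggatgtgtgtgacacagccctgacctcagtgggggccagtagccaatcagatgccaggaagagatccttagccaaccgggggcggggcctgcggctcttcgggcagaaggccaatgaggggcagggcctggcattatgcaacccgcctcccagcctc
Per3: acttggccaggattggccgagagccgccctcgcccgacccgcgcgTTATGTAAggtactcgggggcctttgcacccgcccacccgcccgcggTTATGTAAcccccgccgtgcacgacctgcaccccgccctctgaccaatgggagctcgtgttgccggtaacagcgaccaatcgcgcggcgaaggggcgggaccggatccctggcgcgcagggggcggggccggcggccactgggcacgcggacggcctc
Cry2: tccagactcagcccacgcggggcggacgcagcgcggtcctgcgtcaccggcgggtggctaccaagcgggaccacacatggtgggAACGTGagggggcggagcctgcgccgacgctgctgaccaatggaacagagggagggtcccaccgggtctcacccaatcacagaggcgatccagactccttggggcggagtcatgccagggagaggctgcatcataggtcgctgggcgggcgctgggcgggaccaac
Nr1d1: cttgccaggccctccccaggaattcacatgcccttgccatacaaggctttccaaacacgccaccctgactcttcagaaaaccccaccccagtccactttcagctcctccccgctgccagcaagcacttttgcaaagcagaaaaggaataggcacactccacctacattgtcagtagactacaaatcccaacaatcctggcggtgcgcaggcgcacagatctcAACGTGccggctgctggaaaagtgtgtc
Arntl: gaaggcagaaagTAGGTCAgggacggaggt
The E-box of Per1 began at position -166 from the start site, and the E-prime boxes, read on the opposite strand as AACGTG, at -166 in Cry2 and -28 in Nr1d1. Per3 held D-boxes at -205 and -158. Of all 32851 windows of the table, 7.15% held an E-box, 4.68% an E-prime box, 1.06% a D-box, 6.45% a ROR element and 1.79% a cAMP element. A match describes the letters only.

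Reads in genes came to between 12335272 and 20525175 per library of WT and ΔSE tissue and to between 26848053 and 30329601 in the single-enhancer lines. Of these reads, Rn45s, the precursor of ribosomal RNA, held 21.7 to 42.9% in WT and ΔSE tissue and 0.0765 to 0.924% in the single-enhancer lines. Levels are given as normalized CPM, that is, as the share of a library's reads that fall in a gene, after scaling with edgeR's TMM factors computed over all 19 libraries. Dbp, with 16 to 285 reads per library, had the lowest mean level of the members in every group but WT tissue at p6, where Npas2 had the lowest, with 54 to 115 reads. The edited alleles were read in the genes of the casein locus named by the labels. Csn3 was at 0 to 5.84 CPM in ΔSE tissue at p6 against 46.4 to 423 in WT tissue, at 50.1 to 146 against 5168 to 6707 at p18, and at 276 and 1358 in ΔCsn3PE tissue. Csn1s2b in ΔSE tissue at p6 was at 0 to 0.113 CPM in libraries 1 to 3 but at 9.95 CPM in library 4, above all WT libraries of that stage at 1.65 to 5.01 CPM. At p18 it was at 2.62 to 15.7 CPM in ΔSE tissue. It was at 27.8 to 51.5 CPM in ΔCsn1s2bE tissue and at 42.7 to 217 CPM in WT tissue at p18, which overlap. All 6 markers of luminal epithelium were detected in all libraries, with a summed level of 432 to 917 CPM at p6 and 1410 to 2318 CPM at p18. In such bulk tissue, fewer cells of a type and less RNA per cell cannot be told apart.

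Between p6 and p18 in WT tissue, Arntl mRNA rose and the mRNAs of Nr1d1, Cry2, Dbp and Per3 fell. Arntl was at 8.30, 13.2 and 5.20 CPM in the 3 libraries at p6 and at 20.7, 24.9 and 21.8 CPM at p18. Every library at p18 was therefore above every library at p6, and the fold change was 2.56 (log2 1.36 ± 0.23 SE, adjusted p = 0.000418 by edgeR, n = 3 and 3). The other activators did not pass the test. Clock, the partner of ARNTL, was at 62.7 to 81.0 CPM at p6 and at 76.1 to 84.8 CPM at p18 (log2 0.19 ± 0.12, adjusted p = 0.263), and Npas2, a second partner, ranged from 2.58 to 5.95 CPM at p6 and from 4.999 to 9.44 at p18 (log2 0.62 ± 0.30, adjusted p = 0.131).

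Among the repressors of WT tissue, Nr1d1 was at 40.9, 30.3 and 32.3 CPM at p6 and at 14.5, 12.8 and 11.4 CPM at p18. The groups were far apart, and the level fell 2.63-fold (log2 -1.40 ± 0.18, adjusted p = 4.34e-05). Cry2, which encodes the only cryptochrome among the members, was at 30.5, 19.03 and 21.7 CPM at p6 and at 11.6, 12.2 and 13.5 CPM at p18, again with no overlap (log2 -0.90 ± 0.18, adjusted p = 0.00132). Nr1d2, the paralog of Nr1d1, did not follow it. It was at 55.3 to 108 CPM at p6 and at 67.1 to 98.2 CPM at p18 (log2 fold change -0.02 ± 0.23, adjusted p = 0.964).

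The 3 Per genes of WT tissue differed among themselves. Per3 fell (log2 -1.01 ± 0.30, adjusted p = 0.0177), although the library at 32.01 CPM among those at 87.1, 32.01 and 73.5 CPM at p6 lay within the range of 21.5 to 38.8 CPM at p18. Per2 was at 34.9, 10.7 and 34.9 CPM at p6 and at 18.4, 18.5 and 10.7 CPM at p18 and did not pass the test (log2 -0.73 ± 0.34, adjusted p = 0.118). Per1, which also responds to glucocorticoids in many tissues, was at 28.1 to 41.9 CPM at p6 and 32.6 to 41.3 CPM at p18 (log2 0.10 ± 0.22, adjusted p = 0.778). Dbp, a direct output of the activators, was at 9.80, 7.81 and 13.6 CPM at p6 and at 2.69, 6.62 and 2.71 CPM at p18. All 3 values at p18 were below those at p6, and the level fell 2.57-fold (log2 -1.36 ± 0.37, adjusted p = 0.0116).

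In WT tissue, 1 of 10 members rose and 4 fell, where 29.6% of all 17844 genes tested were called (17.2% higher and 12.4% lower). Of the members, 4 had groups that did not overlap (1 higher, 3 lower), against 39.9% of all genes (20.9% higher and 19% lower), so that the counts of members stand against many changes between these stages. The median log2 fold change was 0.62 over the 3 activators, -0.90 over the 7 repressor and output genes and -0.05 over all genes. With library totals in place of TMM the median of all genes moved by -0.37, and the calls over all genes went from 3068 higher and 2211 lower to 763 higher and 3663 lower. On that scale Arntl stayed higher (log2 1.00) and Per3, Cry2, Nr1d1 and Dbp stayed lower, with Per2 called lower as well (log2 -1.11, adjusted p = 0.0221), whereas the values of Clock and Per1 changed sign. With 1 factor of unwanted variation in the model none of the 10 was called, where 117 of all genes were, and the log2 fold changes were 1.58 for Arntl, -1.04 for Cry2, -1.02 for Per3, -0.94 for Nr1d1 and -0.93 for Dbp. The factor was estimated without the 5000 genes of smallest p, fewer than the 5279 called here. It may therefore hold stage itself, and the loss of calls with it is no test of them. Without library 3 of WT tissue at p18, 3 members were called, where 4156 of all genes were. Per3 (adjusted p = 0.0873) and Dbp (adjusted p = 0.0601) were lost. Per3 was also lost without library 1 at p6 (adjusted p = 0.0846) and in a fit of the 2 groups alone (adjusted p = 0.0666).

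**Figure D1:**
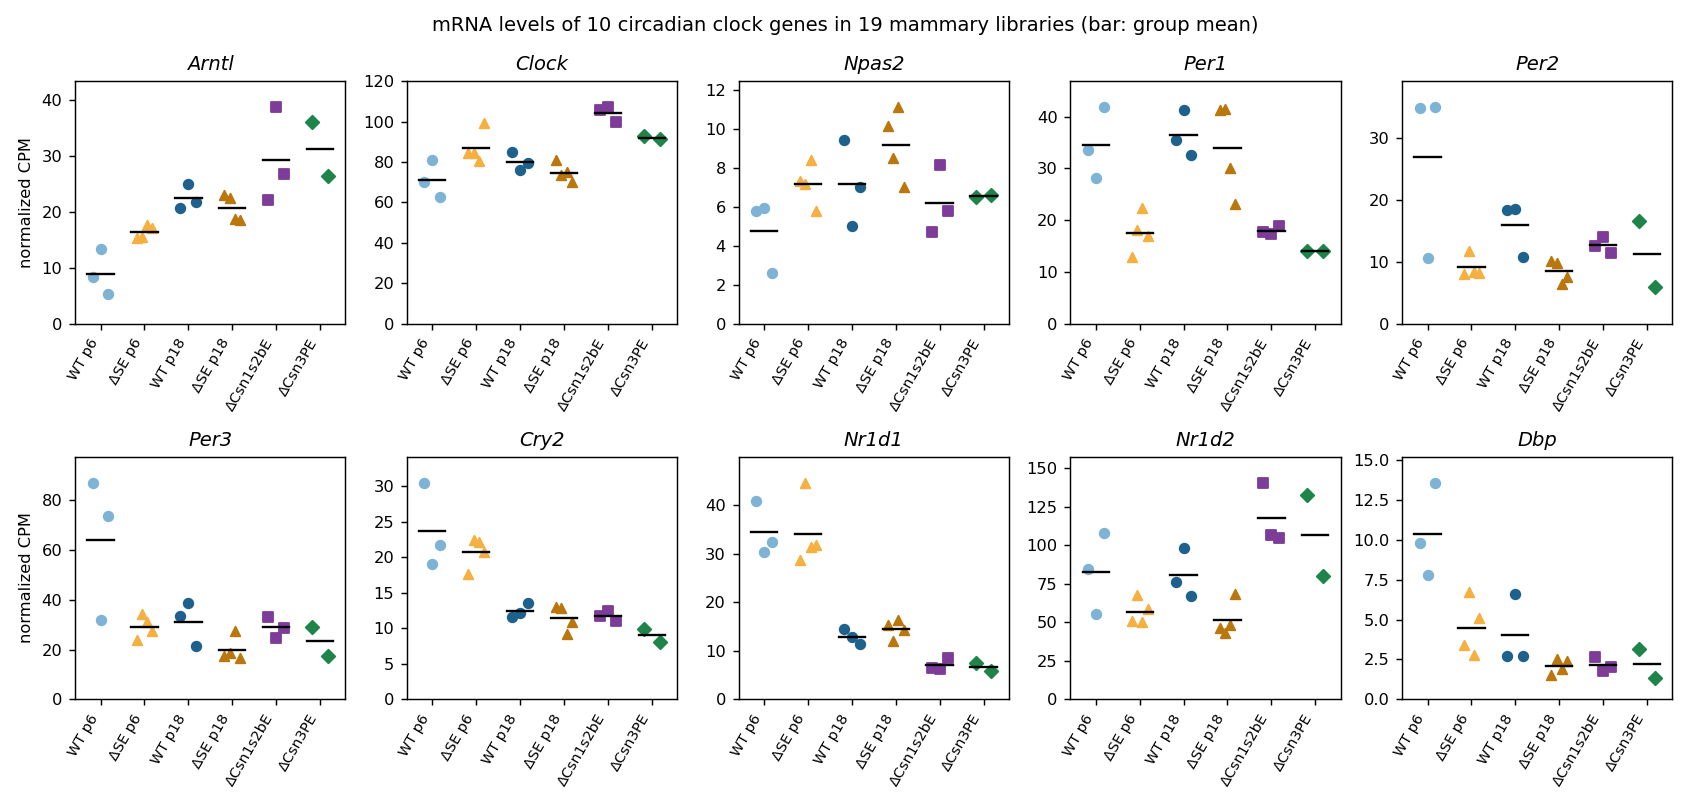
Levels of the 10 clock genes in normalized CPM (vertical axes, from 0, scaled for each gene) in all 19 libraries by group, where a point is a library and a bar the group mean. Nr1d1 and Cry2 are lower in every library at p18 than in every library at p6, and Arntl is lowest in WT tissue at p6, at 5.20 to 13.2 CPM.

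ΔSE tissue showed the fall of Nr1d1, Cry2 and Dbp between p6 and p18 but had no called change of Arntl, and Per1 rose. Nr1d1 was at 28.7, 44.6, 31.4 and 31.8 CPM at p6 and at 15.3, 12.05, 16.3 and 14.2 CPM at p18. No library at p18 reached the lowest at p6, and the log2 fold change was -1.22 ± 0.16 (adjusted p = 2.48e-05, n = 4 and 4). Cry2 fell from 17.7 to 22.5 CPM to 9.20 to 13.04 CPM (log2 -0.84 ± 0.16, adjusted p = 0.000641). Dbp fell from 2.77 to 6.71 CPM to 1.501 to 2.56 CPM (log2 -1.09 ± 0.35, adjusted p = 0.0227), a call that was lost without either of the libraries 2 and 4 at p6 or 1 and 3 at p18, with adjusted p of 0.05544 to 0.094.

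Arntl in ΔSE tissue was at 15.3, 15.5, 17.6 and 17.0 CPM at p6 and at 22.9, 22.5, 18.7 and 18.5 CPM at p18. The groups did not overlap, but the difference was small and did not pass the test (log2 0.35 ± 0.20, adjusted p = 0.178). A fit of these 2 groups alone called it higher (log2 0.35, adjusted p = 0.0232), and with library totals it changed sign (log2 -0.25). Per1 was at 12.8, 18.1, 22.4 and 17.0 CPM at p6 and at 41.4, 41.4, 30.05 and 23.0 CPM at p18. It rose 1.96-fold with no overlap (log2 0.97 ± 0.20, adjusted p = 0.00134), a call lost with library totals (log2 0.35, adjusted p = 0.173). The remaining members were not called. Their log2 fold changes were -0.21 ± 0.11 for Clock, 0.38 ± 0.25 for Npas2, -0.10 ± 0.31 for Per2 and -0.13 ± 0.20 for Nr1d2. Per3 (log2 -0.53 ± 0.26, adjusted p = 0.133) was called lower in the fit of the 2 groups alone (adjusted p = 0.0239) and with library totals. Of the 10 members 1 rose and 3 fell, where 35.6% of all genes were called (17.3% higher and 18.3% lower), and 5 had groups that did not overlap (2 higher, 3 lower), against 38.1% of all genes (18.2% higher and 19.9% lower). With library totals the calls over all genes went from 3083 higher and 3265 lower to 628 higher and 7969 lower, with the median moved by -0.59. With 1 factor of unwanted variation no member was called, where 0 of all genes were (log2 -1.07 for Cry2, -0.52 for Nr1d1, -0.42 for Dbp and 0.37 for Per1). As in WT tissue, this factor may hold stage itself and is no test of these calls.

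A direct test asked whether the change between stages differed between ΔSE and WT tissue. No member passed it by edgeR or DESeq2, where 0.151% of all genes were called (0.0897% higher and 0.0616% lower), and 3 had an unadjusted p under 0.05. The difference in log2 fold change was -1.01 ± 0.30 for Arntl (adjusted p = 0.134), -0.40 ± 0.16 for Clock (adjusted p = 0.245) and 0.87 ± 0.30 for Per1 (adjusted p = 0.172). For the other members it was 0.63 ± 0.46 (Per2), 0.49 ± 0.40 (Per3), 0.27 ± 0.51 (Dbp), -0.25 ± 0.39 (Npas2), 0.17 ± 0.24 (Nr1d1), -0.11 ± 0.30 (Nr1d2) and 0.06 ± 0.24 (Cry2). Without library 2 of WT tissue at p6, Arntl was called (log2 -1.39, adjusted p = 0.00333), where 1036 of all genes were.

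At p6, ΔSE tissue had lower Per1 and Per2 mRNA than WT tissue. Per2, a repressor that also shows strong daily cycles, was at 34.9, 10.7 and 34.9 CPM in WT tissue and at 8.002, 11.7, 8.38 and 8.12 CPM in ΔSE tissue. Library 2 of WT tissue lay within the ΔSE range, and the log2 difference was -1.54 ± 0.32 (adjusted p = 0.0371, n = 4 and 3). Per1 was at 33.5, 28.1 and 41.9 CPM in WT tissue and at most at 22.4 CPM in ΔSE tissue, with no overlap (log2 -0.96 ± 0.21, adjusted p = 0.0442). These were 2 of 10 members, both lower, where 1.03% of all genes were called (0.499% higher and 0.527% lower).

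Further members stood apart at p6 without passing the test. Arntl was at 15.3 to 17.6 CPM in ΔSE tissue, above all WT libraries at 5.20 to 13.2 CPM (log2 0.89 ± 0.22, adjusted p = 0.0589). Dbp was at 2.77 to 6.71 CPM, below all WT libraries at 7.81 to 13.6 CPM (log2 -1.18 ± 0.34, adjusted p = 0.0908). Per3 was at 23.7 to 34.3 CPM against 32.01 to 87.1 CPM in WT tissue (log2 -1.12 ± 0.28, adjusted p = 0.0595), and Nr1d2 at 49.97 to 68.0 CPM against 55.3 to 108 CPM (log2 -0.52 ± 0.21, adjusted p = 0.215). Arntl, Per1 and Dbp thus had groups that did not overlap, 3 of 10 members (1 higher, 2 lower) against 11.4% of all genes (5.99% higher and 5.41% lower), and 8 of 10 had an unadjusted p under 0.05. Nr1d1 was at 28.7 to 44.6 CPM in ΔSE tissue and at 30.3 to 40.9 CPM in WT tissue, with a log2 difference of 0.00 ± 0.16 (0.00406 before rounding), and Cry2 had a log2 difference of -0.17 ± 0.16 (adjusted p = 0.647). The other activators were Clock (log2 0.31 ± 0.12, adjusted p = 0.191) and Npas2 (log2 0.61 ± 0.28, adjusted p = 0.282).

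The p6 comparison rested on the choice of libraries and settings. Library 2 of WT tissue held 7 of the 10 members within the range of the ΔSE libraries (Clock, Npas2, Per2, Per3, Cry2, Nr1d1 and Nr1d2), whereas library 1 held 1 (Nr1d1) and library 3 held 2 (Cry2 and Nr1d1). Library 2 also stood apart in Csn3, at 46.4 CPM against 329 and 423 CPM in libraries 1 and 3. Without library 2 of WT tissue 6 members were called, 1 higher (Arntl, log2 1.301) and 5 lower (Per1, Per2, Per3, Nr1d2 and Dbp), where 1767 of all genes were called. With any 1 of the other 6 libraries at p6 left out no member was called, and 8 to 123 of all genes were. Without library 4 of ΔSE tissue, which stood apart in Csn1s2b, the log2 differences were -1.51 for Per2 (adjusted p = 0.120) and -0.97 for Per1 (adjusted p = 0.122). DESeq2 called 5 members (Arntl higher, and Per1, Per2, Per3 and Dbp lower) and 908 of all genes. A fit of these 2 groups alone called no member and 0 of all genes, library totals no member and 37, and 1 factor of unwanted variation no member and 9. The log2 differences in these fits ran from -1.56 to -1.31 for Per2 and from -0.98 to -0.83 for Per1.

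Levels of cell type markers are given beside the p6 comparison, and their part in it was not tested. The summed level of 9 adipocyte markers was 3971 to 7940 CPM in ΔSE tissue and 2618 to 4586 CPM in WT tissue, and that of 5 skeletal muscle markers was 39.2 to 3230 CPM and 861 to 2056 CPM. The muscle range of ΔSE tissue enclosed that of WT tissue. No marker of either list was at 0 in any library at p6, and none passed the edgeR test (5 of 9 adipocyte markers, all higher in ΔSE tissue, and 0 of 5 muscle markers had an unadjusted p under 0.05, and DESeq2 called 2 and 0). The 6 luminal markers summed to 432 to 818 CPM in ΔSE tissue and to 705 to 917 CPM in WT tissue. All 6 had a negative log2 difference (median -0.32), and Elf5, a transcription factor of the secretory lineage named after its values were seen, was called lower (log2 -1.55 ± 0.34, adjusted p = 0.0458). With the adipocyte level as a covariate no member and 0 of all genes were called (log2 -0.90 for Per2, -0.85 for Per1), and with the muscle level 4 members and 392 of all genes were.

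At p18, ΔSE and WT tissue showed no member past the test by edgeR or DESeq2, where 0.314% of all genes were called by edgeR (0.101% higher and 0.213% lower), and 4 members had an unadjusted p under 0.05. Per2 was at 10.04, 9.77, 6.34 and 7.52 CPM in ΔSE tissue and at 18.4, 18.5 and 10.7 CPM in WT tissue (log2 -0.91 ± 0.33, adjusted p = 0.238). Dbp was at 1.501, 2.56, 1.91 and 2.42 CPM in ΔSE tissue against at least 2.69 CPM in WT tissue (log2 -0.91 ± 0.37, adjusted p = 0.326). These 2 were below WT tissue in every library, 2 of 10 members, where 15.1% of all genes did not overlap (5% higher and 10.1% lower). The others with an unadjusted p under 0.05 were Nr1d2 (log2 -0.63 ± 0.21, adjusted p = 0.201) and Per3 (log2 -0.63 ± 0.28, adjusted p = 0.377), and a fit of these 2 groups alone called Per2 and Nr1d2, where 824 of all genes were called. The skeletal muscle markers summed to 4.78 to 9.73 CPM in ΔSE tissue and 2.82 to 1297 CPM in WT tissue, where the WT range enclosed the ΔSE range. DESeq2 called 5 of the 5 markers and edgeR none. With their level as a covariate no member was called either. Arntl overlapped, at 18.5 to 22.9 CPM against 20.7 to 24.9 CPM (log2 -0.12 ± 0.21), as did Per1 (log2 -0.10 ± 0.21), Clock (log2 -0.09 ± 0.12), Npas2 (log2 0.36 ± 0.28), Cry2 (log2 -0.11 ± 0.17) and Nr1d1 (log2 0.18 ± 0.17).

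**Figure D2:**
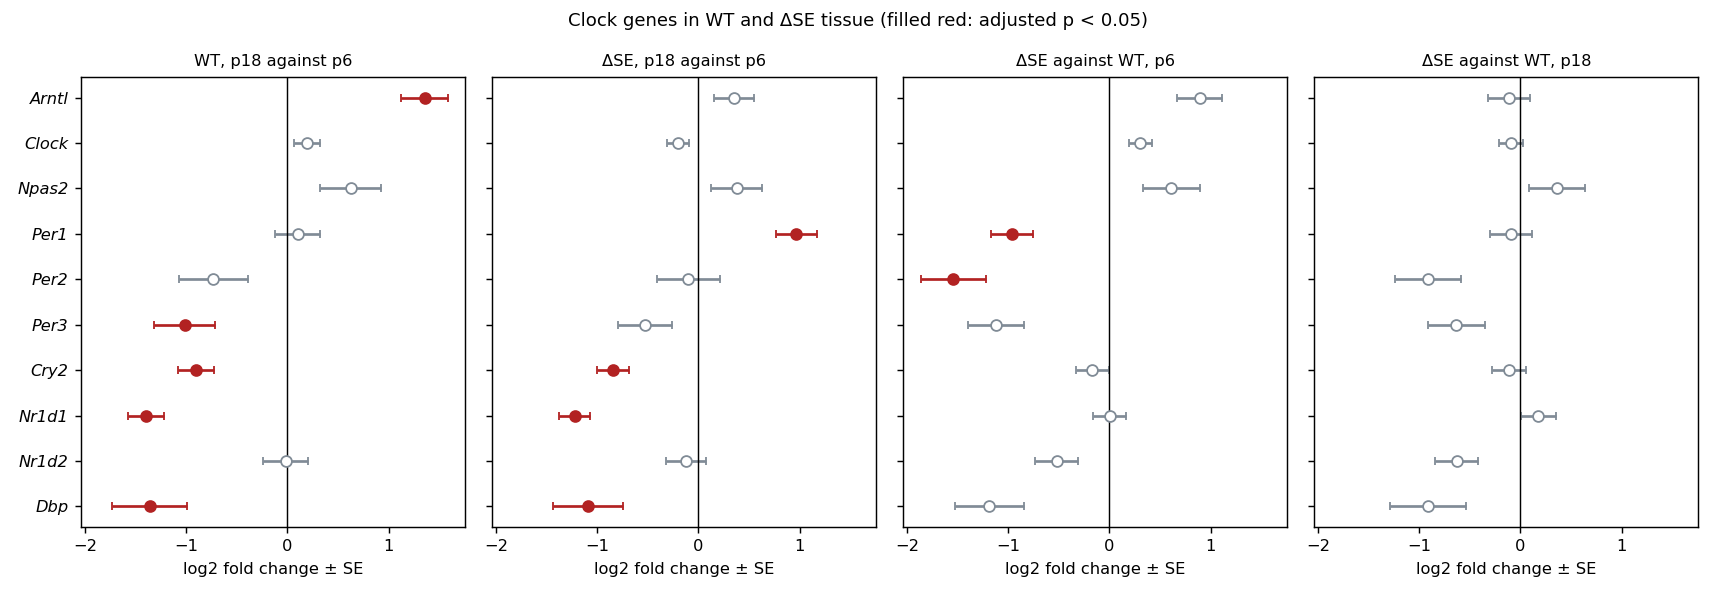
Log2 fold changes of the 10 clock genes with SE bars (horizontal axes) in 4 comparisons of WT and ΔSE tissue, where filled red points have an adjusted p under 0.05. Nr1d1, Cry2 and Dbp lie to the left of 0 between stages in both genotypes, and Per1 and Per2 are the members called at p6 between genotypes.

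The single-enhancer lines had lower Per1 and Nr1d1 than WT tissue at p18, with line and set of libraries not to be told apart. Per1 was at 17.8, 17.4 and 18.8 CPM in ΔCsn1s2bE tissue and at 13.9 and 14.1 CPM in ΔCsn3PE tissue, where WT tissue was at 35.4, 41.3 and 32.6 CPM. Both lines lay far below the lowest WT library (log2 -1.08 ± 0.13, adjusted p = 0.000394, n = 3 and 3, and log2 -1.44 ± 0.15, adjusted p = 0.000423, n = 2 and 3). Nr1d1 was at 6.53, 6.32 and 8.43 CPM in ΔCsn1s2bE tissue and at 7.49 and 5.77 CPM in ΔCsn3PE tissue, again below all WT libraries at 11.4 to 14.5 CPM. Its log2 differences were -0.92 ± 0.18 (adjusted p = 0.00377) and -1.02 ± 0.20 (adjusted p = 0.0069). The calls of Per1 held under every alternative, and those of Nr1d1 were lost with library totals (log2 -0.51 and -0.61) and with the adipocyte level as a covariate (log2 -0.50 and -0.61), where 347 and 328 of all genes were called. The summed adipocyte markers were at 3101 to 4838 CPM in these lines and at 2100 to 2584 CPM in WT tissue at p18. This covariate therefore cannot be told apart from line, and the loss of calls with it is no test of them.

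Other members were nearer to WT tissue. Clock was higher in ΔCsn1s2bE tissue, at 99.8 to 107 CPM against 76.1 to 84.8 CPM (log2 0.32 ± 0.11, adjusted p = 0.0422), a call lost under 14 of 16 alternatives, among them the omission of library 2 or 3 of WT tissue and of each ΔCsn1s2bE library (adjusted p 0.0661 to 0.145). Cry2 was lower in ΔCsn3PE tissue, at 9.85 and 8.11 CPM against 11.6 to 13.5 CPM (log2 -0.53 ± 0.16, adjusted p = 0.0313), a call lost under 10 of 15 alternatives, among them the omission of library 2 or 3 of WT tissue and of either ΔCsn3PE library (adjusted p 0.053 to 0.191). Arntl was at 22.1, 38.7 and 26.8 CPM in ΔCsn1s2bE tissue and at 36.0 and 26.3 CPM in ΔCsn3PE tissue, against 20.7 to 24.9 CPM, and did not pass the test (log2 0.31 ± 0.20 and 0.41 ± 0.22). With library totals, where the median of all genes moved by 0.40 and 0.42, it was called higher in both lines (log2 0.68, adjusted p = 0.00724, and log2 0.81, adjusted p = 0.00593). Library totals include the reads of Rn45s, at 29.7 to 33.4% in WT tissue at p18 and 0.0765 to 0.924% in these lines. The part of Rn45s in the calls gained or lost on that scale was not tested. Nr1d2 was at 105 to 141 CPM in ΔCsn1s2bE tissue and at 133 and 79.9 CPM in ΔCsn3PE tissue, against 67.1 to 98.2 CPM (log2 0.48 ± 0.21 and 0.34 ± 0.23), opposite in sign to Nr1d1 and not called with TMM. It was called higher with library totals (log2 0.91 and 0.73), as was Clock in ΔCsn3PE tissue (log2 0.56, adjusted p = 0.0262), where its difference with TMM was 0.14 ± 0.12.

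Dbp was at 1.75 to 2.66 CPM in ΔCsn1s2bE tissue, below all WT libraries at 2.69 to 6.62 CPM, and at 1.34 and 3.13 CPM in ΔCsn3PE tissue, which overlapped. Its log2 differences of -0.96 ± 0.41 (adjusted p = 0.1) and -0.91 ± 0.46 (adjusted p = 0.174) did not pass the edgeR test, and DESeq2 called it lower in ΔCsn1s2bE tissue (log2 -1.002, adjusted p = 0.0435). Without library 2 of WT tissue they were -0.42 and -0.36. The other members were not called in either line. In the order ΔCsn1s2bE and ΔCsn3PE the log2 differences were -0.39 ± 0.33 and -0.57 ± 0.37 for Per2, -0.18 ± 0.24 and -0.48 ± 0.27 for Per3 and -0.28 ± 0.25 and -0.19 ± 0.28 for Npas2, and Cry2 in ΔCsn1s2bE tissue had -0.15 ± 0.14. Without library 1 of ΔCsn3PE tissue, Per2 was called lower there (log2 -1.48, adjusted p = 0.0262).

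Of the 10 members, 1 was higher and 2 were lower in ΔCsn1s2bE tissue, where 32.3% of all 17125 genes tested were called (17.2% higher and 15% lower). In ΔCsn3PE tissue none was higher and 3 were lower, where 25.2% of all genes were called (13.8% higher and 11.5% lower). Groups did not overlap for 5 members in each line (2 higher and 3 lower in both), against 46.9% of all genes in ΔCsn1s2bE tissue (27.9% higher and 19% lower) and 52.2% in ΔCsn3PE tissue (30.3% higher and 21.9% lower). Both comparisons share the WT libraries. With library totals the median of all genes moved by 0.40 and 0.42, and the calls over all genes went from 2950 higher and 2576 lower to 5444 and 874 in ΔCsn1s2bE tissue and from 2355 and 1968 to 5103 and 627 in ΔCsn3PE tissue. Between the lines themselves no member passed the test by edgeR or DESeq2, where 0.181% of all genes were called by edgeR (0.0117% higher and 0.169% lower). Per1 (log2 0.35 ± 0.14, approximate 95% interval 0.08 to 0.63) and Cry2 (log2 0.38 ± 0.15, interval 0.08 to 0.68) had an unadjusted p under 0.05, both higher in ΔCsn1s2bE tissue, with an adjusted p of 0.883 each. For the others the approximate 95% interval held 0, from -0.53 to 0.32 for Arntl, -0.06 to 0.41 for Clock, -0.63 to 0.45 for Npas2, -0.54 to 0.88 for Per2, -0.21 to 0.83 for Per3, -0.30 to 0.49 for Nr1d1, -0.32 to 0.60 for Nr1d2 and -0.94 to 0.85 for Dbp. Clock, Per1 and Cry2 had groups that did not overlap, 3 of 10 members, all higher in ΔCsn1s2bE tissue, against 20.5% of all genes (11% higher and 9.51% lower).

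**Figure D3:**
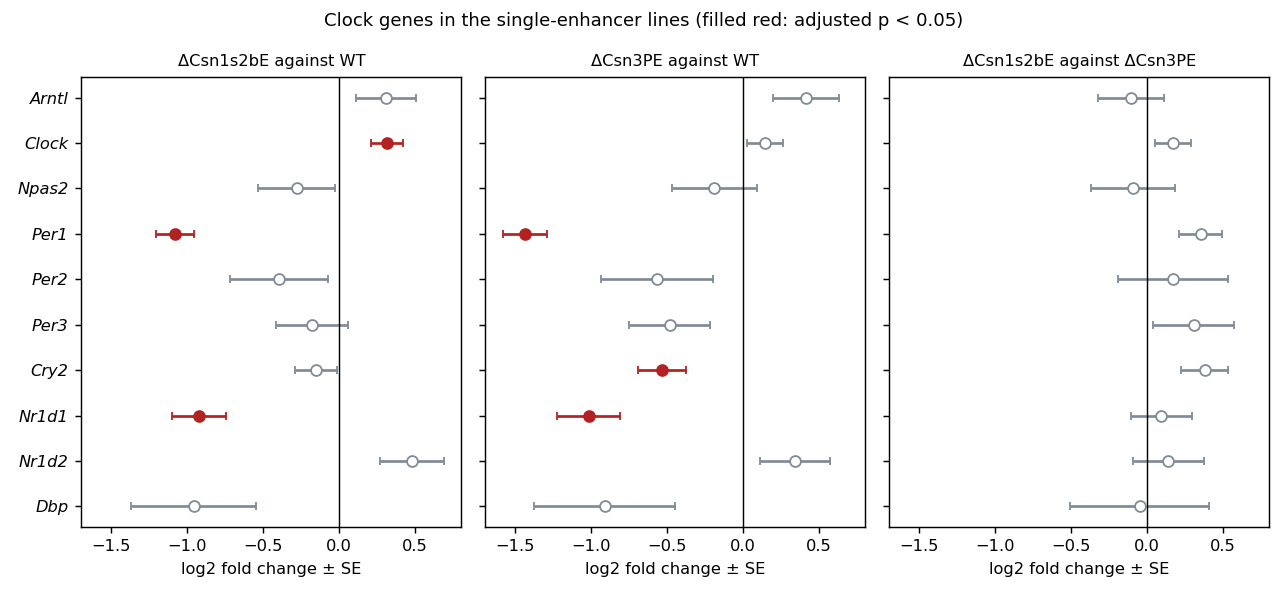
Log2 fold changes of the 10 clock genes with SE bars (horizontal axes) in the single-enhancer lines against WT tissue at p18 and against each other, where filled red points have an adjusted p under 0.05. Per1 and Nr1d1 lie to the left of 0 in both lines, at -1.08 and -0.92 in ΔCsn1s2bE tissue and -1.44 and -1.02 in ΔCsn3PE tissue.

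The relation of the arms was then read within each library, as a description. Ratios of reads within 1 library do not depend on the scaling between libraries. WT tissue at p6 had 0.847, 1.70 and 0.382 Arntl reads for each Dbp read, and at p18 it had 7.69, 3.76 and 8.02. ΔSE tissue had 4.52, 2.31, 6.37 and 3.34 at p6 and 15.3, 8.79, 9.82 and 7.64 at p18. At p6 the lowest ΔSE library was above the highest WT library, whereas at p18 the ranges overlapped, between 7.64 and 8.02. The single-enhancer lines reached 8.29 to 22.1 (ΔCsn1s2bE) and 11.5 and 19.6 (ΔCsn3PE).

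With Nr1d1 in place of Dbp, WT and ΔSE tissue stood closer together. Arntl reads for each Nr1d1 read were 0.203, 0.437 and 0.161 in WT tissue and 0.531, 0.348, 0.562 and 0.536 in ΔSE tissue at p6, where library 2 of WT tissue lay within the ΔSE range. At p18 they were 1.43, 1.95 and 1.91 in WT tissue and 1.497, 1.86, 1.15 and 1.303 in ΔSE tissue, all above 1. All 7 libraries at p6 thus had fewer Arntl than Nr1d1 reads, and all 12 labelled p18 had more, up to 6.12 in ΔCsn1s2bE tissue.

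The mean log2 level of the 3 activators minus that of the 7 repressor and output genes was -1.32, -0.23 and -1.98 in WT tissue at p6 and 0.45, -0.09 and 0.57 at p18. In ΔSE tissue it was 0.45, -0.12, 0.36 and 0.21 at p6 and 0.92, 0.74, 0.90 and 0.64 at p18, and in the single-enhancer lines it ran from 0.52 to 1.38. The balance was therefore lowest in WT tissue at p6, and there it spread most, by over 1.7 log2 units between libraries 2 and 3. ΔSE tissue at p6 overlapped with WT tissue at p18 by this measure.

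**Figure D4:**
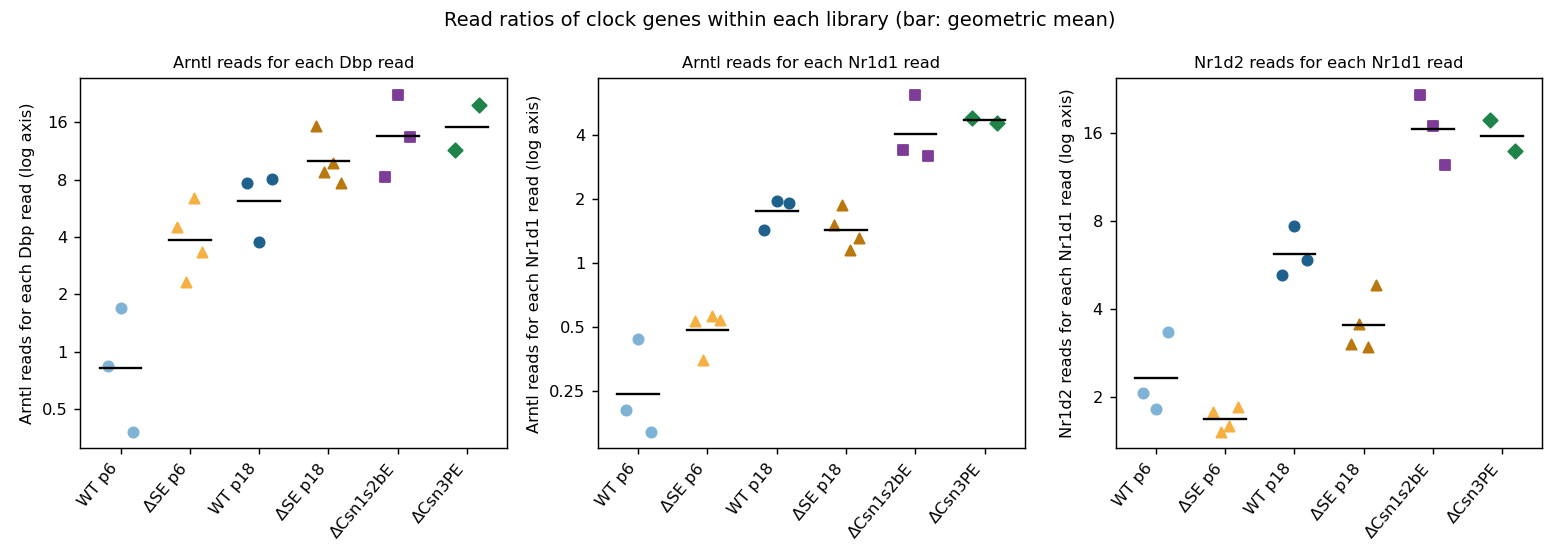
Reads of 1 clock gene for each read of another within each library (vertical log axes), by group, where a point is a library and a bar the geometric mean. Arntl reads for each Dbp read run from 0.382 in WT tissue at p6 to 22.1 in ΔCsn1s2bE tissue, and Nr1d2 reads for each Nr1d1 read are highest in the single-enhancer lines.

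The 2 receptors that repress Arntl separated from each other. There were 2.06, 1.83 and 3.35 Nr1d2 reads for each Nr1d1 read in WT tissue at p6 and 5.24, 7.68 and 5.90 at p18. ΔSE tissue had 1.52 to 1.85 at p6 and 2.97 to 4.84 at p18, with no ΔSE library at p18 as high as the lowest WT library of that stage. The single-enhancer lines had 12.4 to 21.5. In all groups Nr1d2 had more reads than Nr1d1. Per base of exon, in CPM per kilobase of the exons of the GENCODE annotation, Nr1d2 was the most abundant member in WT tissue (17.7 at p6 and 17.2 at p18), followed at p6 by Nr1d1 (12.7) and at p18 by Clock (8.07). Dbp (2.18) and Npas2 (1.69) were the least abundant at p18, and Arntl (2.88) and then Npas2 were at the end of the order at p6.

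Whether members vary together apart from groups could be read only in part. Arntl separated the libraries at p6 from those at p18 and, at p6, WT from ΔSE tissue, so that no correlation with Arntl is given over these clusters and the relation at p6, where neither genotype has 6 libraries, was not tested. Over the 7 libraries of WT and ΔSE tissue at p18, Arntl and Per1 had a Pearson r of 0.88 (exact permutation p = 0.00833, adjusted over 9 relations p = 0.075) and a Spearman rho of 0.82 (exact permutation p = 0.0341, adjusted p = 0.307). Without the 2 libraries farthest from the median of Arntl r was 0.68. The relation had the sign of genes that rise together, and it did not pass the correction. Arntl with Dbp had r = 0.52 (exact permutation p = 0.228, adjusted p = 0.431) and Arntl with Nr1d1 r = -0.50 (exact permutation p = 0.259, adjusted p = 0.431), and none of the other 6 relations passed either. Group means were not removed for these values. Dbp and Per2 did not overlap between the genotypes at p18, so that their r may hold the difference between genotypes.

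**Figure D5:**
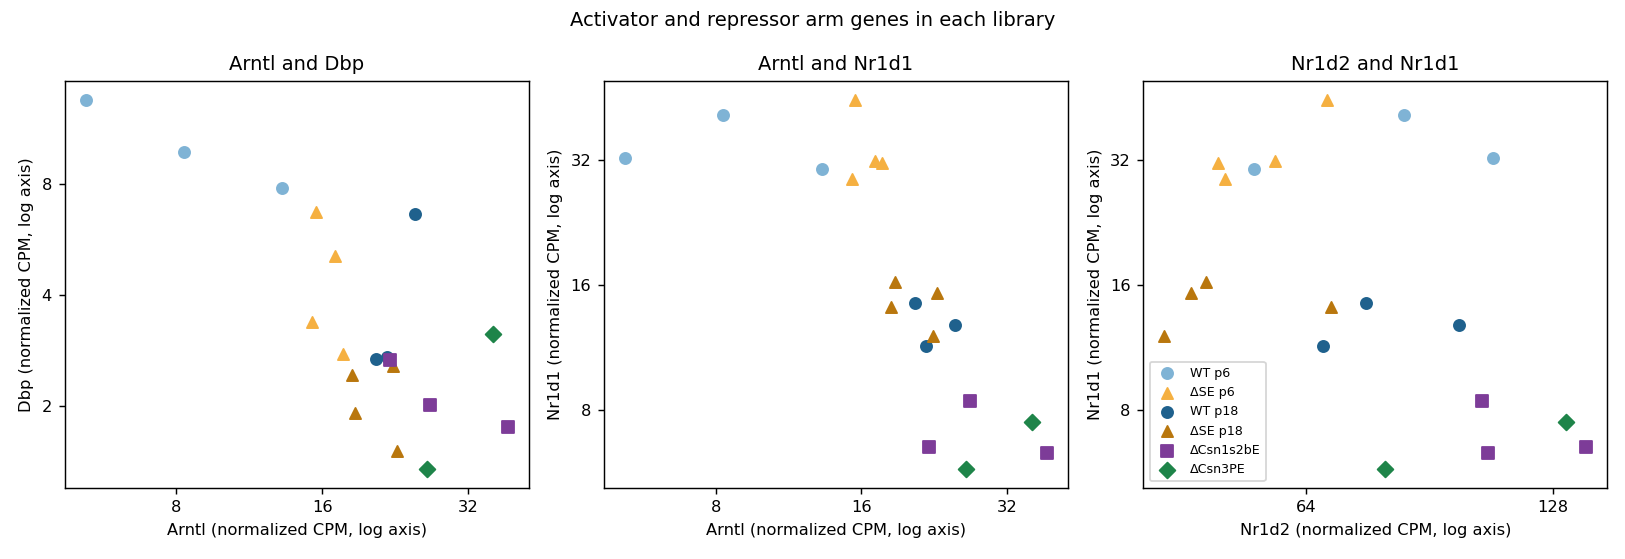
Levels of Arntl with Dbp, Arntl with Nr1d1 and Nr1d2 with Nr1d1 in normalized CPM (log axes), where each point is 1 of the 19 libraries and color and shape mark the group. WT libraries at p6 lie at low Arntl and high Dbp, all libraries labelled p18 lie at Nr1d1 of 16.3 CPM or less, and those of the single-enhancer lines have the lowest Nr1d1, at 5.77 to 8.43 CPM.

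The genes whose levels moved most like Arntl once group means were removed, over the 19 libraries and among 10390 genes with a mean of at least 5 CPM, were Nek7 (r = 0.91), Cox15, Atf5, Clcn4-2 and Cux1 (r = 0.81). Clock ranked 389 and Npas2 331 in that order. Most like Dbp was the member Nr1d2 (r = 0.79), and among other genes Fbxo3 (r = 0.78), Tef (r = 0.77), which encodes a factor of the same family as DBP, Kcnj2, Slc25a12 and Zdhhc24 (r = 0.73) followed. The libraries share depth and tissue make-up, so that these values describe likeness only.

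The other genes of the clock, a list of 18 that holds, among others, the ROR receptors and the casein kinases of the loop, was read beside the members. In WT tissue 4 rose and 4 fell between p6 and p18, and 10 did not pass the test, where 17.2% of all genes were called higher and 12.4% lower. Bhlhe41, a repressor of E-box activity, fell (log2 -2.24 ± 0.16), and Rora, an activator of Arntl (log2 1.38 ± 0.15), Cry1, the second cryptochrome (log2 1.25 ± 0.17), and Hlf, a D-box factor (log2 2.15 ± 0.32), rose. Cry1 thus moved opposite to Cry2, and Hlf opposite to Dbp. In ΔSE tissue 4 rose and 3 fell, where 17.3% of all genes were higher and 18.3% lower, among them Bhlhe41 (log2 -1.59 ± 0.14), Hlf (log2 2.79 ± 0.29), Rora (log2 0.72 ± 0.13) and Csnk1a1, a casein kinase (log2 0.56 ± 0.10).

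Between ΔSE and WT tissue 0 of these 18 passed the test by edgeR at either stage, with 4 at p6 and 3 at p18 at an unadjusted p under 0.05, and 3 and 2 were called by DESeq2. In ΔCsn1s2bE tissue 5 were higher and none lower, where 17.2% of all genes were higher, among them Csnk1a1 (log2 0.72 ± 0.13), Bhlhe40 (log2 0.60 ± 0.12) and Fbxw11 (log2 0.46 ± 0.14). In ΔCsn3PE tissue 2 were higher and none lower, where 13.8% of all genes were higher, among them Csnk1a1 (log2 0.70 ± 0.14). Of 8 genes that cycle under the clock in many tissues, 1 rose (Nampt, an enzyme of NAD synthesis, log2 1.57 ± 0.20) and 2 fell (Por and Dtx4) in WT tissue with stage, where 17.2% of all genes rose and 12.4% fell. In ΔSE tissue Nampt and Tsc22d3 rose and Por and Dtx4 fell, where the shares were 17.3% and 18.3%. Wee1 was the member of this list that was higher in both single-enhancer lines.

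Per1 also belongs to a list of 6 genes that respond to glucocorticoids. None of them passed the edgeR test between stages in WT tissue (1 with an unadjusted p under 0.05, and none by DESeq2). In ΔSE tissue 4 rose, where 17.3% of all genes did, Per1 and Tsc22d3 (log2 0.88 ± 0.20) with the smallest p. In the test of the difference between the genotypes 0 of the 6 passed by edgeR, 2 had an unadjusted p under 0.05 and DESeq2 called 1. In ΔCsn1s2bE tissue 1 was higher and 2 were lower, where 17.2% of all genes were higher and 15% lower. In ΔCsn3PE tissue 2 were higher and 1, Per1, was lower, where the shares were 13.8% and 11.5%. Of 8 immediate early genes, which rise quickly on handling and stress, 3 fell with stage in WT tissue (Egr1, log2 -2.29 ± 0.32, and Junb, log2 -0.92 ± 0.23, among them), where 12.4% of all genes fell. In ΔSE tissue 1 rose and 1 fell, where 17.3% of all genes rose and 18.3% fell. In ΔCsn1s2bE tissue none was higher and 2 were lower, where 17.2% of all genes were higher and 15% lower. In ΔCsn3PE tissue 1 was higher and 1 lower, where the shares were 13.8% and 11.5%. Junb was lower in both single-enhancer lines (log2 -2.79 ± 0.20 and -1.76 ± 0.22). The part of these genes in the clock values was not tested.

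Markers of other cell types moved with stage beside the clock genes. The 5 markers of skeletal muscle summed to 861 to 2056 CPM in WT tissue at p6 and 2.82 to 1297 CPM at p18, and to 39.2 to 3230 CPM and 4.78 to 9.73 CPM in ΔSE tissue, where Ckm or Tnnt3 was at 0 in 1 library each at p18. All 5 fell in ΔSE tissue, where 18.3% of all genes fell. None of the 5 passed the test in WT tissue, where the libraries spread widely. The 9 adipocyte markers summed to 2618 to 4586 and 2100 to 2584 CPM in WT tissue and to 3971 to 7940 and 2306 to 3442 CPM in ΔSE tissue, and none was at 0. In WT tissue 2 of the 9 fell and in ΔSE tissue 6, where 12.4% and 18.3% of all genes fell. In the single-enhancer lines the adipocyte markers summed to 3101 to 4838 CPM. Of them, 4 were higher and 1 lower in ΔCsn1s2bE tissue, where 17.2% of all genes were higher and 15% lower. In ΔCsn3PE tissue 2 were higher and 1 lower, where the shares were 13.8% and 11.5%. Of the 6 luminal markers 2 rose in WT tissue and all in ΔSE tissue, where 17.2% and 17.3% of all genes rose. With the muscle level as a covariate 5 members were called between stages in WT tissue and 3 in ΔSE tissue, where Dbp was lost (log2 -0.34). With the adipocyte level the counts were 6 and 2, where 1604 of all genes were called in ΔSE tissue, against 6348 without a covariate. Without a covariate 29.6% and 35.6% of all genes were called. The other shares with these covariates are not given here, so the counts are not read as a result about the members. Both sums separated the stages in ΔSE tissue, as the adipocyte sum did in WT tissue. Each may therefore hold stage itself, and the loss of calls with it is no test of them.

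Reads of several members overlap with a gene on the opposite strand. The exons of Dbp share 539 bases (29.3%) with Sphk2, those of Nr1d1 share 263 (9.67%) with Thra and those of Cry2 share 149 (3.43%) with D930015M05Rik. The libraries were stranded, but the strand setting of the counting is not given in the sources used here, and without it reads of such pairs cannot be told apart. Thra, chosen after its values were seen, fell with stage in WT tissue (log2 -0.64 ± 0.14) and ΔSE tissue (log2 -0.74 ± 0.12), by less than Nr1d1, and was lower in the single-enhancer lines (log2 -0.65 ± 0.15 and -0.67 ± 0.16). Sphk2 did not pass the test between stages (log2 0.17 and 0.39), and was lower in the single-enhancer lines (log2 -1.18 ± 0.19 and -0.97 ± 0.21).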

How the data were processed

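Total RNA of mammary tissue was depleted of ribosomal RNA and sequenced in 19 libraries. The authors trimmed reads with Trimmomatic 0.36, aligned them to mm10 with STAR 2.5.4a and counted them per gene with HTSeq 0.9.1, and the deposited files hold raw counts for 24421 genes. The counting annotation and strand setting are not given in the sources used here. The study calls its replicates independent biological ones, and none of the replicate libraries were identical. Rows that name no gene were left out. They stand only in the files of the single-enhancer lines, where reads in no feature made up 13.2 to 20.9%, ambiguous reads 0.672 to 0.821% and reads aligned to several places 8.57 to 9.62%.

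From these counts, differences were tested with edgeR 4.0.16 (quasi-likelihood, TMM) in R 4.3.3 over genes with at least 10 reads in total. WT and ΔSE tissue (14 libraries, 17844 genes) were fitted in 1 model and the single-enhancer lines with WT tissue at p18 (8 libraries, 17125 genes) in another. P values were adjusted over all genes of a model by Benjamini-Hochberg, and genes under 0.05 are said to be called, higher or lower. Errors of log2 fold changes are SE derived from the F statistic. Correlations used log2(normalized CPM + 0.1). Alternatives were DESeq2 1.42.0 and its size factors, library totals, other filters, a replicate block, 1 factor of unwanted variation estimated without the 5000 genes of smallest p, fits of 2 groups, leaving out each library, and marker levels as covariates. Depth of 12335272 to 30329601 reads in genes limits precision for genes such as Dbp.

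The members and gene lists were chosen with earlier results of these data known. All 10 members are named in every comparison, up to 4 called genes of smallest p of the other clock and output lists, up to 2 of the glucocorticoid and immediate early lists, and the 5 genes most like Arntl and Dbp. The neighbours on the opposite strand were added after their values were seen. A result for 1 gene of the list of other clock genes is not reported here.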

Additional observations from a re-analysis of the deposited data

Results flagged for a closer look

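Among the 20 checks of a clock gene in a group of 4 libraries, 1 found a library far from the others. Per2 in ΔSE tissue at p6 was at 11.7 CPM in library 2, where the other libraries lay at 8.002 to 8.38 CPM, so that the gap to the nearest of them made up 0.899 of the range of the group, above Dixon's critical value for 4 values. Chance alone marks about 1 in 20 such groups. Without this library the log2 difference of Per2 from WT tissue at p6 was -1.71 (edgeR, adjusted p = 0.0534).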

How the results depend on the processing

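The calls of Per1 in both single-enhancer lines held under each alternative run, whereas the calls between ΔSE and WT tissue at p6 varied with it. In WT tissue between stages, 5 genes were called, and 0 with 1 factor of unwanted variation, where 117 of all genes were. When each library in turn was left out 3 to 6 were called, the 3 where 4156 of all genes were, against 5279 with all libraries. In ΔSE tissue 4 were called, and 0 with that factor, where 0 of all genes were. With the adipocyte level as a covariate 2 were called, where 1604 of all genes were, and 3 to 4 without single libraries. That factor may hold stage itself, as may the adipocyte level, which separated the stages, so that neither can test the calls between stages. Between ΔSE and WT tissue at p6 the 2 calls became 0 with library totals, with that factor and with the adipocyte level. They also became 0 in a fit of the 2 groups alone, 4 with the muscle level and without the filter on low counts, and 5 with DESeq2. Without single libraries 0 to 6 were called, where 8 to 1767 of all genes were. At p18 the 0 calls became 2 in a fit of the 2 groups alone (0 to 0 without single libraries), and for the difference between genotypes in the change with stage 0 to 1 were called without single libraries. In ΔCsn1s2bE and ΔCsn3PE tissue the 3 calls each became 1 with the adipocyte level and 2 to 3 without single libraries, and between the lines 0 to 0. The adipocyte level did not overlap between these lines and WT tissue at p18, so that the calls lost with it are no test. The covariates of muscle and adipocyte level were chosen after seeing the data. The cause of these changes was not tested.

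Replicate numbers were shared between groups, but deviations of libraries with the same number correlated at -0.688 to 0.503, so that the numbers were not taken as pairs. With the replicate number as a block, 0 clock genes were called between ΔSE and WT tissue at p6, the calls of Clock in ΔCsn1s2bE tissue (log2 0.32, adjusted p = 0.120) and Cry2 in ΔCsn3PE tissue were lost, and the log2 difference of Dbp between the single-enhancer lines became 0.12.

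With library totals, log2 fold changes took the other sign for Clock (-0.17) and Per1 (-0.29) in WT tissue between stages, for Arntl (-0.25) and Npas2 (-0.20) in ΔSE tissue, for Cry2 (0.020) between genotypes at p6, for Cry2 (-0.22) and Nr1d1 (-0.075) in the difference of stage changes, for Npas2 (0.094), Per2 (0.018), Per3 (0.26) and Cry2 (0.24) in ΔCsn1s2bE tissue, for Npas2 (0.23) in ΔCsn3PE tissue and for Dbp (0.018) between the lines. With 1 factor of unwanted variation this held for Per1 (-0.28) and Nr1d2 (0.13) in WT tissue, Clock (0.041) and Nr1d2 (0.10) in ΔSE tissue, Nr1d1 (-0.10) at p6, Cry2 (-0.025) in the difference of stage changes and Npas2 (0.00086) between the lines. With the muscle level it held for Nr1d2 (0.090) in WT tissue, Npas2 (-0.052) and Nr1d2 (0.072) in ΔSE tissue and Npas2 (0.076) between the lines. With the adipocyte level it held for Clock (0.038) in ΔSE tissue, Cry2 (-0.0067) in the difference of stage changes, Npas2 (0.16) and Per2 (0.28) in ΔCsn1s2bE tissue and Npas2 (0.25) in ΔCsn3PE tissue. Nr1d1 at p6 lay at -0.017 with DESeq2 size factors, -0.022 with filterByExpr, -0.016 with DESeq2 and -0.015 in a fit of the 2 groups.

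Without single libraries, log2 fold changes that crossed 0 ranged in WT tissue from -0.26 to 0.21 (Nr1d2) and -0.049 to 0.25 (Per1), in ΔSE tissue from -0.20 to 0.070 (Per2), at p6 from -0.32 to 0.041 (Cry2) and -0.16 to 0.14 (Nr1d1), at p18 from -0.21 to 0.053 (Per1), in the difference of stage changes from -0.16 to 0.23 (Cry2), -0.46 to 0.10 (Npas2) and -0.31 to 0.16 (Nr1d2), and in ΔCsn3PE tissue from -0.41 to 0.050 (Npas2) and -0.058 to 0.66 (Nr1d2). Between the lines they ranged from -0.35 to 0.13 (Arntl), -0.54 to 0.66 (Dbp), -0.32 to 0.072 (Npas2), -0.075 to 0.28 (Nr1d1), -0.17 to 0.54 (Nr1d2), -0.39 to 1.08 (Per2) and -0.0076 to 0.71 (Per3).

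For the correlations with Arntl at p18, that of Per1 passed the correction with DESeq2 size factors (r = 0.894, exact permutation, adjusted p = 0.0429) and lay at 0.85 to 0.89 without single libraries. That of Nr1d1 was 0.055 with library totals, and those of Per3 and Nr1d2 were -0.019 and -0.19 on deviations from group means. Without single libraries r ranged from -0.062 to 0.57 (Clock), -0.76 to 0.039 (Npas2), -0.22 to 0.46 (Per3), -0.37 to 0.41 (Nr1d2) and -0.12 to 0.83 (Dbp), and leaving out library 2 of WT tissue turned the sign of all of these but Clock, which turned without library 4 of ΔSE tissue. The mean log2 ratio of Arntl to Dbp became -2.03 in WT tissue at p6, 0.80 in WT tissue at p18, -1.04 and 0.51 in ΔSE tissue, 2.21 in ΔCsn3PE tissue and 2.00 in ΔCsn1s2bE tissue with Nr1d1 in place of Dbp, and 2.81 in ΔSE tissue at p18 with a pseudocount of 1. Counts as low as 16 reads limit Dbp.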

Other observations

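Between the single-enhancer lines and WT tissue at p18 the ratio of Nr1d2 to Nr1d1 reads had no overlap, at 12.4 to 21.5 against 5.24 to 7.68. Arntl reads for each Per1 read lay at 1.24 to 2.59 in these lines and at 0.584 to 0.668 in WT tissue. Arntl and Per2 in ΔSE tissue gave 1.32 to 2.10 Arntl reads for each Per2 read at p6 and 2.28 to 2.96 at p18, and WT tissue gave 0.149 to 1.24 and 1.124 to 2.03. Deviations of Dbp from its group means went with those of Nr1d2 (r = 0.79), Per2 (r = 0.55) and Per3 (r = 0.52) and against those of Npas2 (r = -0.66) over the 19 libraries, which share depth and tissue make-up. Of the remaining marker lists, 1 Schwann cell marker rose and 2 fell with stage in both WT and ΔSE tissue, and 2 of 5 myoepithelial markers rose and 1 fell in both. Of all genes, 17.2% rose and 12.4% fell in WT tissue, and 17.3% rose and 18.3% fell in ΔSE tissue. No marker of endothelium (4 genes) or of leukocytes (5 genes) passed the edgeR test with stage in WT tissue, where none had an unadjusted p under 0.05 and DESeq2 called 0, and 1 of each fell in ΔSE tissue.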
